A study of Mus musculus with 4 samples.

Results

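Primitive endoderm is the first endoderm of the mouse embryo, the layer that separates from the pluripotent epiblast inside the blastocyst and later gives rise to the visceral and parietal endoderm of the yolk sacs. GATA6 starts this program under FGF signalling, in mutual antagonism with the epiblast factor NANOG, and the GATA4, SOX17, SOX7 and HNF4A transcription factors follow. The cells carry the receptor PDGFRA, take up maternal nutrients with the help of the adaptor DAB2, and lay down a basement membrane rich in laminin and SPARC. Cultured ESCs hold a small and variable number of cells that switch on some of these genes. Here 10 regulators and markers of this lineage were read from the RNA counts of WT and Rest-/- mouse ESCs. They are the transcription factor genes Gata6, Gata4, Sox17, Sox7, Foxa2 and Hnf4a, the receptor gene Pdgfra, the endocytic adaptor gene Dab2 and the extracellular matrix genes Lama1 and Sparc. They were chosen by symbol, each matched 1 of the 26301 genes in the count table, and all 10 passed the filter on low counts that left 15444 genes for testing.

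The WT libraries came from the ESC line N6 and the Rest-/- libraries from the line N8, in which the gene for the transcriptional repressor REST is disrupted, with 2 biological replicates of each. Both lines were kept in medium with serum and LIF with a feeder layer of irradiated embryonic fibroblasts, which 3 feeder-free passages on gelatin were meant to clear ahead of the RNA preparation. Each genotype is thus represented by 1 line, so the genotype and other differences between the lines cannot be told apart, and p-values measure the spread between cultures of a line. In bulk RNA, fewer cells of a type and less RNA per cell cannot be told apart either. The libraries held 22293966 to 30953863 counts. Rest itself was at 255 and 233 CPM (counts relative to library size, scaled with the TMM factors of edgeR) in WT and at 164 and 176 CPM in Rest-/- libraries. Counts per gene give no view of single exons.

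Of the 10 genes, 9 had a higher fitted level in Rest-/- ESCs and Hnf4a had a lower one. Their median log2 fold change was 0.64, against -0.0047 over all 15444 genes tested. The 10 genes were chosen with earlier results of these data known, so values over all genes are set beside them as description only. With each library left out, 7 or 8 of the 10 were higher and the median lay between 0.45 and 0.88. The fitted folds were highest for Gata6, Pdgfra and Dab2, at 4.80, 4.27 and 2.53 times WT, and Hnf4a was 5.62 times lower. None of the 10 passed edgeR's quasi-likelihood test at an adjusted p of 0.05, where 0.0583% of all genes tested did (9 genes). Before adjustment, at p under 0.05, 3 of the 10 were higher (Gata6, Pdgfra and Dab2) and 1 was lower (Hnf4a), where 3.85% and 2.86% of all genes tested were. In 6 of the 10 (Gata6, Gata4, Pdgfra, Dab2, Lama1 and Sparc) both Rest-/- libraries lay above both WT libraries, as they did for 16.5% of all genes tested, and in 1 both lay below, as for 15.4%. Other tests of the same counts called some of the genes. edgeR's exact test with tag-wise dispersion, which called 1.77% of all genes tested, called Hnf4a, Pdgfra and Gata6 (adjusted p = 6.52e-05, 0.00351 and 0.0211). With common dispersion it called the same 3 members and 2.22% of all genes tested. DESeq2, which called 1.54%, called Hnf4a and Pdgfra (adjusted p = 0.000946 and 0.00604).

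**Figure D1:**
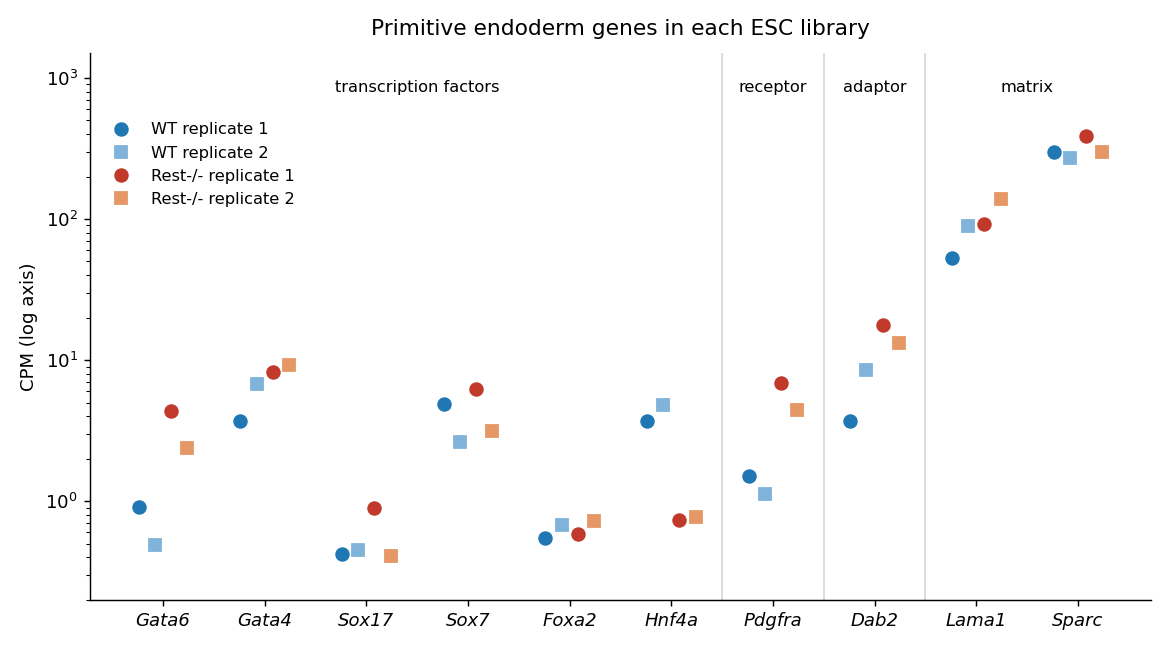
Level of the 10 primitive endoderm genes in each library, as CPM on a log axis, with circles for replicate 1 and squares for replicate 2, blue for WT and red or orange for Rest-/- ESCs. Both Rest-/- points of Hnf4a lie near 0.75 CPM, below both WT points, whereas those of Gata6 and Pdgfra lie above both WT points.

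Levels of different genes were compared per kilobase of exon, as CPM divided by the length of the annotated exons (RPKM, mean of 2 libraries). In WT ESCs Sparc stood at 84.0 RPKM and Lama1 at 7.49 RPKM, far above the other genes. Gata4 at 1.34, Sox7 at 1.14, Hnf4a at 0.846 and Dab2 at 0.830 RPKM formed a middle group whose libraries overlapped from one gene to the next. Foxa2 at 0.258, Gata6 at 0.218, Pdgfra at 0.196 and Sox17 at 0.138 RPKM were the lowest. Foxa2, Gata6 and Pdgfra overlapped with their neighbours, while both libraries of Sox17 lay below both of Pdgfra. In Rest-/- ESCs Sparc (102 RPKM) and Lama1 (12.1 RPKM) kept the first places. Gata4 (2.23 RPKM) and Dab2 (2.10 RPKM) came next, followed by Sox7 (1.43), Gata6 (1.05), Pdgfra (0.840), Foxa2 (0.275) and Sox17 (0.206 RPKM). From Gata4 to Pdgfra each gene overlapped with the next, and both libraries of Foxa2 lay below both of Pdgfra. Hnf4a went from the fifth place in WT to the last in Rest-/- ESCs, at 0.150 RPKM. Its Rest-/- libraries (0.146 and 0.153 RPKM) and those of Sox17 (0.282 and 0.129 RPKM) overlapped, so the last places were not separated.

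GATA6 and GATA4 are zinc finger transcription factors that bind GATA sites, and either of them can push ESCs towards primitive endoderm when it is supplied in excess. Gata6, on chromosome 18, had 28 and 13 counts in WT against 112 and 53 counts in Rest-/- libraries. This was 0.904 and 0.485 CPM in WT against 4.33 and 2.39 CPM in Rest-/- ESCs, and the groups did not overlap. On the log2 scale the fitted difference was 2.26 (standard error, SE, 0.53, 95% interval 0.85 to 3.68, adjusted p = 0.495, edgeR's quasi-likelihood test). The annotated antisense gene 1010001N08Rik shares exon sequence with Gata6 and had at most 2 counts in any library. Gata4, on chromosome 14 of mm9 from 63817759 to 63890529, was at 3.71 and 6.80 CPM in WT and at 8.28 and 9.16 CPM in Rest-/- ESCs. Its groups did not overlap either, but WT replicate 2 stood closer to the Rest-/- libraries than to WT replicate 1. For Gata4 the log2 fold change was 0.73 (SE 0.38, adjusted p = 0.927, edgeR's quasi-likelihood test), and it moved from 0.35 without WT replicate 1 to 1.23 without WT replicate 2.

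SOX17 and SOX7 are closely related factors of the SOXF group, of which SOX17 is needed to keep the primitive endoderm program going and SOX7 marks its later, parietal derivatives. Sox17, on chromosome 1 from 4481009 to 4486494, had few reads, with 13 and 12 counts in WT and 23 and 9 counts in Rest-/- libraries. Its 2 WT libraries, at 0.420 and 0.448 CPM, lay between the Rest-/- libraries, at 0.890 and 0.406 CPM. The sign of its difference followed the replicate number, with 0.60 for replicate 1 and -0.065 for replicate 2 on the log2(CPM + 0.5) scale. Its log2 fold change of 0.59 had a 95% interval from -0.88 to 2.05. Sox7, on chromosome 14 from 64562511 to 64569569, was at 4.88 and 2.61 CPM in WT and at 6.27 and 3.16 CPM in Rest-/- ESCs. Here replicate 1 was the higher library in both genotypes and the groups overlapped. Its log2 fold change was 0.33 (95% interval -1.03 to 1.70), and neither SOXF gene differed beyond the spread of the replicates.

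FOXA2 and HNF4A belong to the endoderm more widely: FOXA2 is a forkhead factor of both visceral and definitive endoderm, and HNF4A is the nuclear receptor that drives secretory and lipid transport genes in visceral endoderm and liver. Foxa2, on chromosome 2 from 147868613 to 147872705, had between 15 and 18 counts in every library. It was at 0.549 and 0.672 CPM in WT and at 0.581 and 0.722 CPM in Rest-/- ESCs, with overlapping groups. Its log2 fold change was 0.092, with a 95% interval from -1.02 to 1.21 that at this depth leaves room for a change in either direction. Hnf4a, on chromosome 2 from 163332544 to 163398646, had 115 and 128 counts in WT against 19 and 17 counts in Rest-/- libraries. This was 3.71 and 4.78 CPM in WT against 0.735 and 0.767 CPM in Rest-/- ESCs. The groups lay far apart and the Rest-/- replicates were almost at the same level. On the log2 scale the fitted difference was -2.49 (SE 0.35, 95% interval -3.42 to -1.56, adjusted p = 0.191, edgeR's quasi-likelihood test). Among the 15444 genes tested it was the 28th from the lowest log2 fold change. Leaving out each library in turn kept its log2 fold change between -2.67 and -2.30, with adjusted p from 0.0945 to 0.488 in that test, and the difference was -1.77 for replicate 1 and -2.06 for replicate 2 on the log2(CPM + 0.5) scale.

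REST binds a DNA element called RE1, and the core of this element, CAGCACC and GGACAG with any 2 bases between them, was looked for on both strands of mm9 within 20 kb of the annotated starts of the 10 genes. Hnf4a was the 1 gene of the 10 with a match at all 13 informative positions, and 2.38% of the tested genes with a single annotation entry had such a match. The match lies in an intron of Hnf4a, on the minus strand at chr2:163390583-163390597, 14771 bp from the nearest annotated start. It is shown here because Hnf4a was the gene with the largest difference, with 40 bases on each side (chr2:163390543-163390637, minus strand) and the matched positions in capitals.
Hnf4a, intronic RE1 core: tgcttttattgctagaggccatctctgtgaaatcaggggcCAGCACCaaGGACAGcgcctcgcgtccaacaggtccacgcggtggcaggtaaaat
When 1 mismatch was allowed, 21.6% of those tested genes had a match, and Gata4, Pdgfra and Sparc had their nearest one at 9915, 15382 and 5086 bp from a start. That of Gata4 is intronic (chr14:63874016-63874030, minus strand), and that of Pdgfra (chr5:75532927-75532941, plus strand) lies outside the gene. That of Sparc (chr11:55207983-55207997, plus strand) lies just downstream of this minus-strand gene, and its distance is counted from an annotated start inside the gene. Capitals mark the informative positions that match.
Gata4: CAGCACCcaGGACAc
Pdgfra: CAGCtCCctGGACAG
Sparc: CAtCACCcgGGACAG
The other 6 genes had no match with at most 1 mismatch in that window. A match is a stretch of letters, and binding of REST was not analysed here.

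Hnf4a is transcribed from an upstream and a downstream promoter, which give rise to proteins with different first exons. RefSeq places these starts 40.3 kb apart on GRCm38.p6, and counts summed over the gene do not tell them apart. The 250 bases before each start are shown with capitals for the GATA site sequences AGATAA and TGATAA and the SOX site sequence AACAAT, on either strand.
Hnf4a, upstream start (chr2:163506607-163506856, plus strand): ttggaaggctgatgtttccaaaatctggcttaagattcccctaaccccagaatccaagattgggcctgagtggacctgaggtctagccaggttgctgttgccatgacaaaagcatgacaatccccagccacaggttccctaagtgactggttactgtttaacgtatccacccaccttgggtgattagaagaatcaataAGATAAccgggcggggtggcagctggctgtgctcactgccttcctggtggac
Hnf4a, downstream start (chr2:163546905-163547154, plus strand): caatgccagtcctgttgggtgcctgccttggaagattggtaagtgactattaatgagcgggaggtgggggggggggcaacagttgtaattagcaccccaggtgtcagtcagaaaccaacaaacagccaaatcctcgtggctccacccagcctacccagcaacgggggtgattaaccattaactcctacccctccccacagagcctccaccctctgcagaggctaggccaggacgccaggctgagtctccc
The upstream window held 1 AGATAA and the downstream window none of the 3 sequences. Over the 32851 RefSeq windows of this length, 9.99% held AGATAA, 7.94% held TGATAA and 9.42% held AACAAT.

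**Figure D2:**
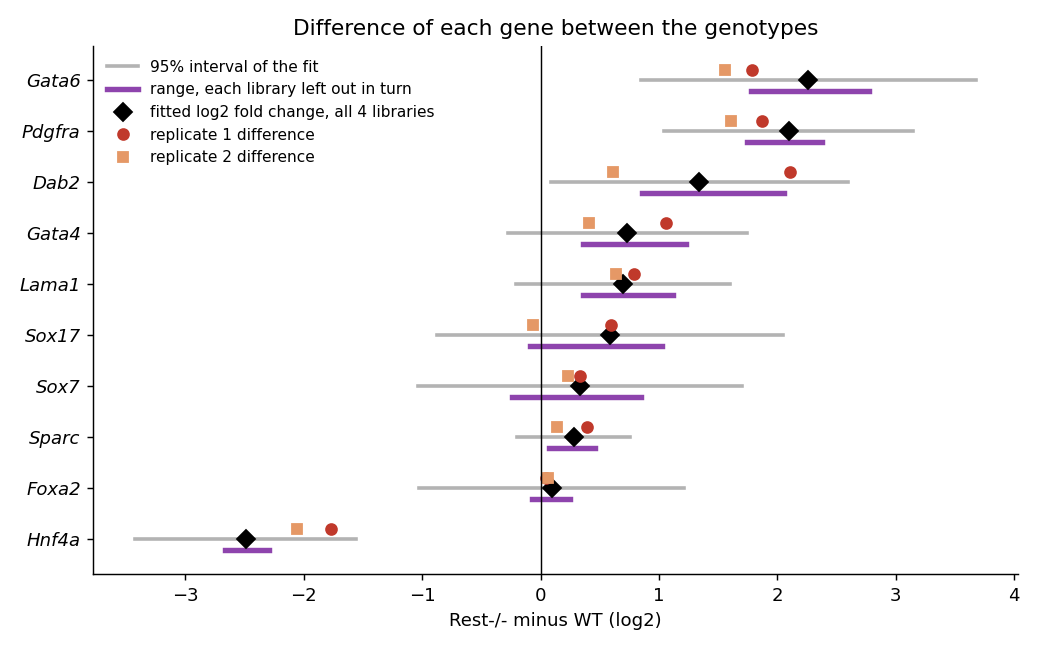
Difference between Rest-/- and WT ESCs for each gene on a log2 scale, ordered by the fitted log2 fold change (black diamonds, grey bars for the 95% interval), with the range over the fits that left out 1 library (purple) and the differences of log2(CPM + 0.5) within replicate 1 (red circles) and replicate 2 (orange squares). Hnf4a lies left of 0 throughout, Gata6 and Pdgfra lie right of 0 throughout, and the ranges of Sox17, Sox7 and Foxa2 cross 0.

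PDGFRA is the receptor for PDGF ligands that marks primitive endoderm from its first days and is used to sort these cells, and it is also found on fibroblasts. Pdgfra, on chromosome 5 from 75548316 to 75594229, had 47 and 30 counts in WT against 178 and 98 counts in Rest-/- libraries. Its level was 1.52 and 1.12 CPM in WT and 6.89 and 4.42 CPM in Rest-/- ESCs, and the lower Rest-/- library stood well above the higher WT library. This was a log2 fold change of 2.10 (SE 0.40, 95% interval 1.04 to 3.15, adjusted p = 0.351, edgeR's quasi-likelihood test). DAB2 is the adaptor that couples the cubilin and megalin receptors to endocytosis in visceral endoderm. Dab2, on chromosome 15 from 6249788 to 6390712, was at 3.71 and 8.48 CPM in WT and at 17.6 and 13.2 CPM in Rest-/- ESCs. Its groups did not overlap, but on the log2 scale the WT libraries stood farther apart than WT replicate 2 and Rest-/- replicate 2 did. The log2 fold change was 1.34 (SE 0.47, adjusted p = 0.728, edgeR's quasi-likelihood test), with 0.86 without WT replicate 1 and 2.05 without WT replicate 2.

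Promoter windows of Pdgfra and Dab2 are shown for comparison with those of Hnf4a, with the same letters in capitals. Both are the 250 bases before a RefSeq start on GRCm38.p6, for Dab2 the upstream one of 2.
Pdgfra (chr5:75152001-75152250, plus strand): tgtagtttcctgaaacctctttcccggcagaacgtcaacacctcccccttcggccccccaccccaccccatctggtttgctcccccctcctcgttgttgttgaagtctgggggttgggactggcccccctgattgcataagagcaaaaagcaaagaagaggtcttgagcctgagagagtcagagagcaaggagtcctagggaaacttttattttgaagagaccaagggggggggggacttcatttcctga
Dab2 (chr15:6299539-6299788, plus strand): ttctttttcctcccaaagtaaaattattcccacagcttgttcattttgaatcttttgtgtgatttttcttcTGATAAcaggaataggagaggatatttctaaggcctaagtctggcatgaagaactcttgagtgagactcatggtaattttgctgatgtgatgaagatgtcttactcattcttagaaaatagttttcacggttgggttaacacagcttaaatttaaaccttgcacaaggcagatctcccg
The window of Dab2 shown held 1 TGATAA, while that before its downstream start (chr15:6386498-6386747) and that of Pdgfra held none of the 3 sequences. Of the other members, the RefSeq promoter table held 3 windows of Foxa2, of which 1 had an AGATAA, and 1 window of Sparc with none of the 3 sequences.

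LAMA1 is the alpha chain of laminin-111, the main laminin of the early embryonic basement membrane, and SPARC is a collagen-binding matrix protein that parietal endoderm and fibroblasts secrete in quantity. Lama1, on chromosome 17 from 68046605 to 68171985, was at 53.1 and 89.4 CPM in WT and at 91.9 and 139 CPM in Rest-/- ESCs. In both genotypes replicate 2 was the higher library, and WT replicate 2 came close to Rest-/- replicate 1. Its log2 fold change was 0.70 (SE 0.34, adjusted p = 0.902, edgeR's quasi-likelihood test), with 0.79 for replicate 1 and 0.63 for replicate 2 on the log2(CPM + 0.5) scale. With each library left out it lay between 0.36 (without Rest-/- replicate 2, or without WT replicate 1) and 1.12 (without WT replicate 2). Sparc, on chromosome 11 from 55208002 to 55233582, had the highest counts of the 10 genes, between 6570 and 10063 in a library. It was at 297 and 269 CPM in WT and at 389 and 297 CPM in Rest-/- ESCs, so Rest-/- replicate 2 and WT replicate 1 were almost at the same level. The log2 fold change of 0.28 had a 95% interval from -0.20 to 0.75, which lies wholly below the values fitted for Gata6 and Pdgfra.

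The 10 genes did not share one profile over the 4 libraries. Their median centred level, log2(CPM + 0.5) minus the mean of the gene, was -0.37 and -0.12 in WT against 0.39 and 0.28 in Rest-/- libraries. Single genes lay at a root mean square distance of 0.23 (Gata4) to 1.25 (Hnf4a) from it. The non-member genes nearest to this median profile were Garnl4, Tmem88, Ehbp1l1, Nptx2 and Obfc1, at distances of 0.047 to 0.056 over the 4 libraries. Garnl4, the nearest, was at 21.1 and 24.4 CPM in WT and at 36.1 and 32.5 CPM in Rest-/- ESCs.

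The signals that induce primitive endoderm run from FGF4, made by epiblast cells, through FGF receptors and the adaptor GRB2, and PDGF supports the survival of the layer. In a list of 11 such genes 2 had a higher and 9 a lower fitted level in Rest-/- ESCs, none passed the threshold, and the median log2 fold change was -0.066. This balance rested on single libraries, since 6 of the 11 were higher when WT replicate 2 was left out (median 0.010) or Rest-/- replicate 1 was (median 0.0088). Its median was -0.15 without Rest-/- replicate 2 and -0.16 without WT replicate 1. The ligand gene Fgf4 was lowest, at 255 and 266 CPM in WT and 120 and 144 CPM in Rest-/- ESCs. For Fgf4 the fitted log2 difference was -0.98 (SE 0.15, adjusted p = 0.215, edgeR's quasi-likelihood test), and the adjusted p was 0.00761 in DESeq2, 0.00235 in edgeR's exact test with tag-wise dispersion and 0.337 with common dispersion. The adaptor gene Shc1 was highest with 0.43. Of 10 epiblast factors, which define the pluripotent state that primitive endoderm leaves, 3 were higher and 7 lower, with a median of -0.21 and none past the threshold. Zfp42, a marker of naive ESCs, was at 705 and 541 CPM in WT and at 258 and 226 CPM in Rest-/- ESCs, which is -1.36 on the log2 scale (SE 0.18, adjusted p = 0.179, edgeR's quasi-likelihood test). Leaving out each library gave Zfp42 an adjusted p of 0.0161 without WT replicate 2 and of 0.0594 to 0.159 without any other library in that test, and it was 6.02e-05 in DESeq2 and 1.76e-05 in edgeR's exact test with tag-wise dispersion and 0.0386 with common dispersion. Pou5f1, which encodes OCT4, was at 687 ± 24.8 CPM in WT and 726 ± 35.0 CPM in Rest-/- ESCs (SD, n = 2 each), and Dppa3 had the highest log2 fold change of this list, 0.59.

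Among 10 other transcription factors of endoderm, 9 were tested, 6 were higher and 3 lower, and the median log2 fold change was 0.071, with a range of 0.027 (without Rest-/- replicate 2) to 0.38 (without WT replicate 2) when each library was left out. Foxa1 was lowest with -0.14, and Sall4, which ESCs use as well, was at 352 ± 22.4 CPM in WT and 370.1 ± 13.9 CPM in Rest-/- ESCs (SD, n = 2 each). Of 10 basement membrane genes 7 were higher and 3 lower, with a median of 0.13. The collagen IV gene Col4a2 had the highest log2 fold change, 0.92, at 27.2 and 60.8 CPM in WT and 69.2 and 96.9 CPM in Rest-/- ESCs. The nidogen gene Nid2 had the lowest, -0.69 (SE 0.12, adjusted p = 0.313, edgeR's quasi-likelihood test), at 316 and 346 CPM in WT and 208 and 202 CPM in Rest-/- ESCs. Hspg2, which encodes perlecan, had a log2 fold change of 0.11. The balance of this list rested on single libraries, with a median of -0.042 (5 higher) without WT replicate 1 and -0.091 (4 higher) without Rest-/- replicate 2, against 0.28 without Rest-/- replicate 1 and 0.33 without WT replicate 2. Col4a2 moved with it, from 0.45 without WT replicate 1 to 1.61 without WT replicate 2. Basement membrane genes thus lay on both sides of 0, with the groups of Col4a2 and of Nid2 not overlapping in opposite directions.

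Of 15 visceral endoderm genes 9 were tested, of which 6 were higher and 3 lower, with a median log2 fold change of 0.33. The defining genes Ttr and Apoa4 had 0 counts in all 4 libraries, and Afp had at most 2. Cubn, which encodes the uptake receptor cubilin, had 72 and 52 counts in WT and 354 and 309 counts in Rest-/- libraries. Its level was 2.33 and 1.94 CPM in WT and 13.7 and 14.0 CPM in Rest-/- ESCs, and the groups lay far apart. The log2 difference of Cubn was 2.69 (SE 0.27, adjusted p = 0.109, edgeR's quasi-likelihood test). In the same test its adjusted p was 0.0372 without WT replicate 1, 0.0341 without WT replicate 2, 0.0653 without Rest-/- replicate 1 and 0.0850 without Rest-/- replicate 2. It was 0.0455 without the filter on low counts, 0.151 with at least 10 counts in every library, 7.89e-11 in DESeq2, and by edgeR's exact test 7.60e-09 (tag-wise dispersion) or 2.51e-07 (common dispersion). Amn and Lrp2, which encode the cubilin partners amnionless and megalin, were chosen after their values were seen. Amn was at 1.97 and 4.59 CPM in WT and 2.71 and 3.21 CPM in Rest-/- ESCs, and Lrp2 at 62.3 and 212 CPM in WT and 123 and 246 CPM in Rest-/- ESCs, so both overlapped between the genotypes. Apoe had a log2 fold change of -0.26, and Ihh the lowest of the list, with -0.42. The median of the list was 0.049 without Rest-/- replicate 1, 0.096 without WT replicate 1 and 0.59 without WT replicate 2.

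Of 9 parietal endoderm genes 8 were higher and 1 lower, with a median log2 fold change of 0.54 and none past the threshold. Srgn, which encodes the proteoglycan serglycin, had 27 and 7 counts in WT and 82 and 43 counts in Rest-/- libraries, with groups that did not overlap. The WT libraries alone would not have carried it past the filter on low counts, so no test is given for it. Pth1r, the receptor for parathyroid hormone-related protein, was the lowest with -0.096. The keratin gene Krt18 was at 25.7 and 145 CPM in WT and at 75.6 and 216 CPM in Rest-/- ESCs, and Krt8 and Krt19, chosen after their values were seen, had the same order of libraries. The keratins thus separated the replicate numbers more than the genotypes. Without WT replicate 1 the median of the parietal list was 0.10, without Rest-/- replicate 2 it was 0.29, and without WT replicate 2 it was 1.52.

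**Figure D3:**
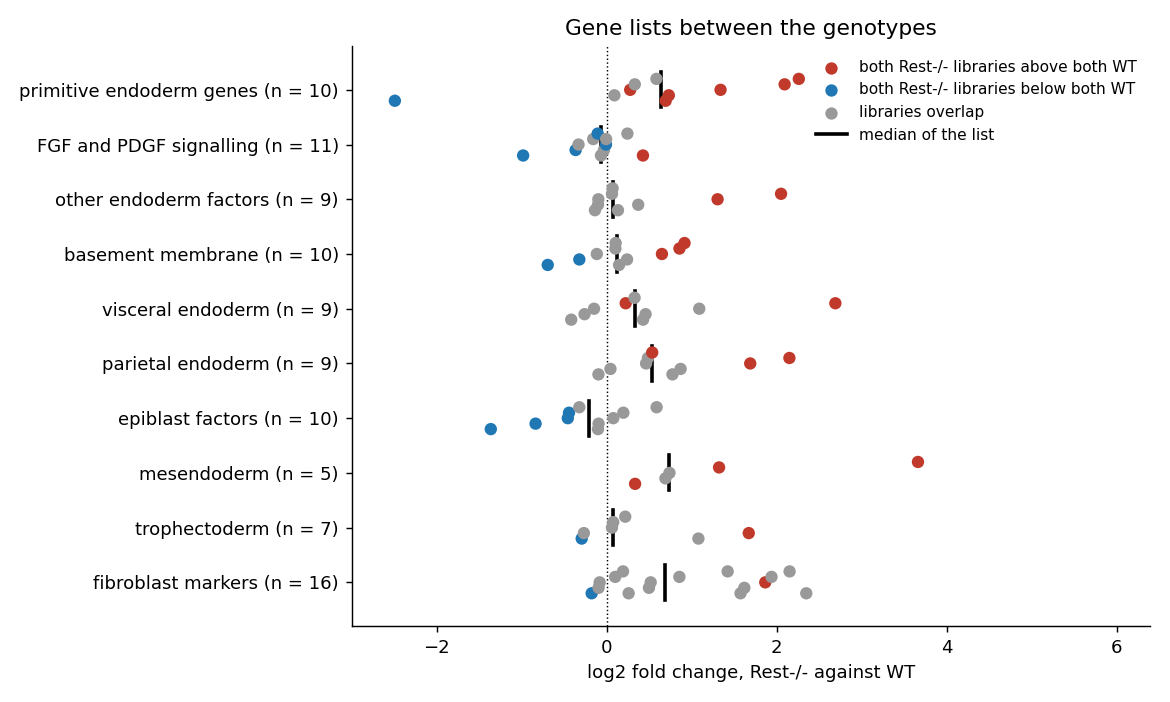
Log2 fold change (Rest-/- against WT) of each tested gene in the primitive endoderm list and in 9 other lists, with a bar at the median of each list, red where both Rest-/- libraries lay above both WT libraries, blue where both lay below and grey where they overlapped. Hnf4a is the blue point at -2.49 in the top row, and the epiblast list is the one with the lowest median, -0.21. Red points include Srgn, Fgf8 and Twist2, which the WT libraries alone would not have carried past the filter on low counts.

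Feeder fibroblasts express Pdgfra and Sparc as well, so fibroblast markers were read in the same libraries. Of 18 fibroblast markers 16 were tested, 13 had a higher and 3 a lower fitted level in Rest-/- ESCs, none passed the threshold, and the median log2 fold change was 0.69. Postn had the highest log2 fold change, 2.35, and Thy1 the lowest, -0.18, while Fn1, which ESCs also express, had 0.10. The 8 defining markers summed to 20.6 and 11.98 CPM in WT and to 88.2 and 13.9 CPM in Rest-/- libraries. Rest-/- replicate 1 stood apart from the other libraries, and Rest-/- replicate 2 lay within the WT range. The part of these cells in the values of Rest-/- replicate 1 was not tested. Among the defining markers, Lum was at 0 counts in every library and Dcn at 5 counts or fewer, while Col1a1 was at 11.8 and 6.42 CPM in WT and at 46.1 and 8.22 CPM in Rest-/- ESCs. Twist2, chosen after its values were seen, had few reads (8 and 4 counts in WT, 23 and 14 in Rest-/- libraries) and groups that did not overlap. Its counts in WT were so low that it passed the filter through the Rest-/- libraries, so no test is given for it. As Twist2 is among the 13 higher markers, no direction was read from that count. Without Rest-/- replicate 1 the median of the tested defining markers was -0.44, with 1 of 6 higher, and that of all 16 tested markers was -0.33. The 10 primitive endoderm genes then had a median of 0.53 and 7 of them were higher. That comparison rests on Rest-/- replicate 2 alone for its genotype. In it the log2 fold change was 1.77 for Gata6, 1.74 for Pdgfra, 1.12 for Dab2, 0.97 for Lama1 and 0.81 for Gata4. Sparc went to 0.072, and Sox17 and Sox7 to -0.089 and -0.24. Hnf4a was at -2.46.

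**Figure D4:**
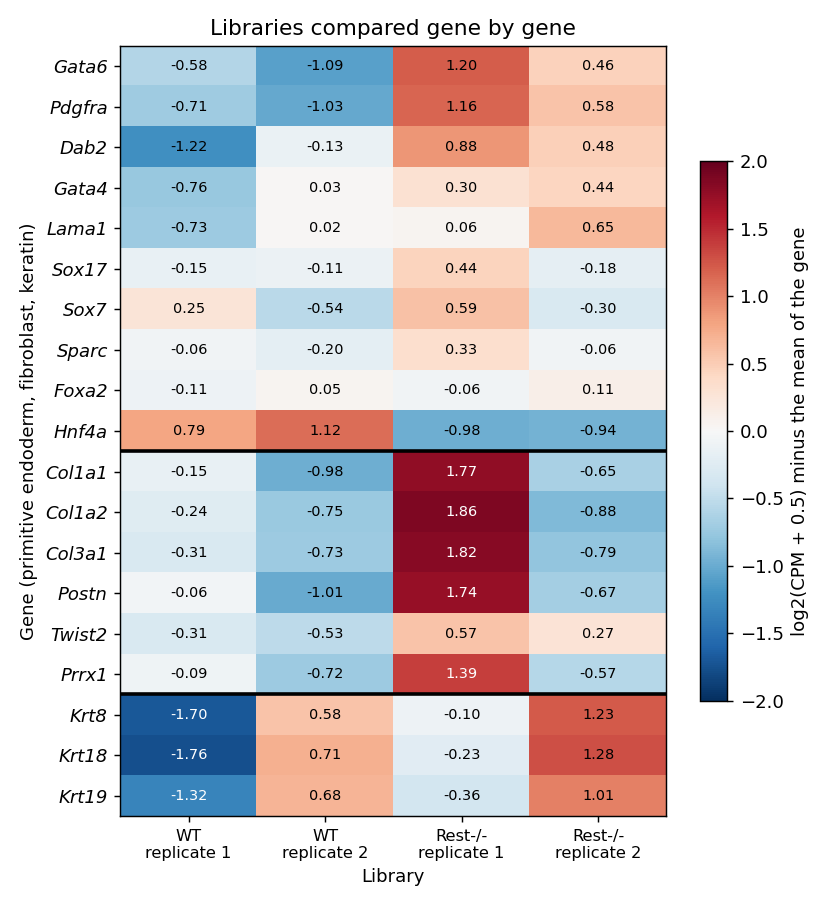
Level of each gene in each library relative to its own mean, as log2(CPM + 0.5) minus the mean over the 4 libraries, for the primitive endoderm genes (top), the tested defining fibroblast markers (middle) and 3 keratins (bottom). Col1a1, Col1a2, Col3a1 and Postn are above their mean in Rest-/- replicate 1 alone, whereas Twist2, Gata6, Pdgfra and Dab2 are above it in both Rest-/- libraries and Hnf4a in both WT libraries.

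Markers of other early lineages were read beside the 10 genes, since Foxa2 and Sox17 also belong to definitive endoderm. Of 8 mesendoderm genes 5 passed the filter on low counts and none of these passed the test. Fgf8 (8 and 9 counts in WT, 11 and 24 in Rest-/- libraries) passed the filter, whereas Gsc (7 and 10 in WT, 3 and 3 in Rest-/- libraries) did not, so no direction was read from the list. Both genes were chosen after their values were seen. The primitive streak gene T (brachyury) was at 1.13 and 0.448 CPM in WT and at 14.9 and 5.33 CPM in Rest-/- ESCs, and its groups did not overlap. T had a fitted log2 difference of 3.66 (SE 0.76, adjusted p = 0.405, edgeR's quasi-likelihood test). For T that adjusted p was 0.0150 without Rest-/- replicate 2 and 0.0449 without WT replicate 1, but 0.0816 without WT replicate 2 and 0.241 without Rest-/- replicate 1, where the log2 difference was 2.74. It was 1.38e-05 in DESeq2, and by edgeR's exact test 0.000862 (tag-wise dispersion) or 9.8e-12 (common dispersion). Mixl1 had a log2 fold change of 0.34. Of 8 trophectoderm genes 7 were tested, 5 higher and 2 lower, with a median of 0.078. Cdx2 was highest with 1.67, at 0.872 and 0.896 CPM in WT and 3.79 and 1.85 CPM in Rest-/- ESCs. Gata3, another GATA factor, was the lowest with -0.29, and Tfap2c had -0.27. The median of these genes turned to -0.084 without WT replicate 1 and to -0.12 without Rest-/- replicate 2, and was 0.25 without Rest-/- replicate 1 and 0.28 without WT replicate 2. Cdx2 was at 1.07 without Rest-/- replicate 1. Of 6 genes of heart and liver, tissues that also use GATA4 or HNF4A, 4 were tested and had a median of 0.20, which turned to -0.10 without Rest-/- replicate 2 and was 0.41 without Rest-/- replicate 1. Nkx2-5 was highest with 0.43, Myh6 was lowest with -0.0081, and Alb had at most 1 count in any library.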

How the data were processed

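For 4 TruSeq libraries the authors aligned reads by Subread and counted them per gene by featureCounts, on mm9 according to the submitters' processing notes. They deposited whole-number counts per Entrez gene without normalization. The annotation and the strand setting are not given in the sources used here, so overlapping and antisense genes cannot be told apart. The 368 rows with no identifier were left out. From the counts, CPM and log2 fold changes were obtained by edgeR 4.0.16 under R 4.3.3 (TMM scaling, the filterByExpr filter, quasi-likelihood test, prior count 0.125, Benjamini-Hochberg adjustment over all genes tested, threshold 0.05), and checked on simulated counts. Differences within a replicate number used log2(CPM + 0.5). Exon lengths, positions and RE1 matches came from NCBIM37 (mm9) with GENCODE M1, where Dab2 has 2 entries and the longer was used, and promoter sequences from RefSeq (GRCm38.p6, Python 3.11.15). Of the list symbols, 5 were matched through RefSeq gene identifiers. Depth was 22293966 to 30953863 counts, with floors of 3 counts per library, which cover counting error only. The genes named are the 10 members, the genes with the highest and the lowest log2 fold change and the highest mean CPM and any called gene of each other list, of which 2 are not reported here, the 5 genes nearest in profile with a mean of at least 5 CPM, and Rest. The members and lists were chosen with earlier results of these data known. Alternatives were each library left out, DESeq2 1.42.0, edgeR's exact test, a block for the replicate number, scaling by RLE, by upper quartile or by library size, 2 other filters and a prior count of 2.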

Additional observations from a re-analysis of the deposited data

How the results depend on the processing

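With 2 libraries a genotype, the number of calls depended on the test. The count of genes past the threshold was 9 (8 higher, 1 lower), and it was 53 without the filter on low counts (49 higher, 4 lower) and 3 with at least 10 counts in every library (3 higher, 0 lower). It was 274 with edgeR's exact test and tag-wise dispersion (203 higher, 71 lower), 343 with common dispersion (246 higher, 97 lower) and 238 with DESeq2 (180 higher, 58 lower). Each library left out in turn gave 60 to 113 genes, 54 to 88 higher and 6 to 25 lower, in fits where the lone library of a genotype is assumed to vary like the others. Of the 10 primitive endoderm genes, 3 were called with the exact test under either dispersion and 2 with DESeq2. Their median log2 fold change lay between 0.45 and 0.88 with each library left out.

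With the replicate number as a block, 2621 genes passed, 17% of those tested (1308 higher, 1313 lower), among them 7 of the 10 (Gata6, Gata4, Hnf4a, Pdgfra, Dab2, Lama1 and Sparc). Libraries with the same number deviated together, with a Pearson's r of 0.83 across 13797 genes, but the labels state no link between them, so these fits were kept apart.

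With each library left out, the log2 fold change crossed 0 for Sox17 (-0.089 to 1.03), Sox7 (-0.24 to 0.84), Foxa2 (-0.075 to 0.25), Foxa1 (-2.02 to 0.63), Hspg2 (-0.17 to 0.45), Ihh (-2.28 to 0.33), Pth1r (-0.35 to 0.20), Krt18 (-0.18 to 2.51), Postn (-0.62 to 4.50), Fn1 (-0.13 to 0.38), Col1a1 (-0.14 to 2.33), Tfap2c (-0.57 to 0.029), Myh6 (-0.28 to 0.22) and Nkx2-5 (-0.52 to 1.02). Scaling by library size alone turned Myh6 to 0.0069. The cause was not tested. Of 596 values of 43 named genes under all alternatives, 517 kept their direction and side of the threshold, 57 passed it in the same direction and 22 changed sign.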
